A study of Mus musculus with 12 samples.

Results

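The histone genes of J774A.1 cells, a mouse macrophage line, were taken by the start of their symbol. It had to be H1f, H2a, H2b, H3c or H4c, or Hist in the older mouse naming. The choice used names only and no measured value. It gave 62 members of the 18719 genes listed in either of 2 count tables, 59 in unstimulated cells and 54 after LPS, with 51 in both. By type they were 7 H1, 19 H2A, 14 H2B, 11 H3 and 11 H4 genes. Of these, 54 are replication-dependent genes, 6 are replacement variants (H1f0, H1f8, H2aj, H2ax, H2az1 and H2az2) and 2 carry the names of pseudogenes (H2ac5-ps and H2af-ps2). H2ac14, counted here among the replication-dependent genes, is annotated as an unprocessed pseudogene. The genes of the H3.3 variant (H3f3a and H3f3b), Cenpa, the H4 gene H4f16 and the macroH2A genes carry other names and were described separately.

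RNA was sequenced from 12 libraries in 4 groups of 3. WT lines were J774A.1 clones grown from single cells that had received the Cas9-GFP vector without a guide, and ACAT1 KO lines were clones made with a guide to exon 4 of Acat1, the gene of a mitochondrial acetyl-CoA acetyltransferase. There were 3 lines of each genotype, so a group is 3 clones of a transformed line and not animals, and p-values measure the spread between these clones. The cells were sequenced unstimulated or after 2 hours with LPS at 100 ng/ml, a bacterial ligand of TLR4. The series asked how loss of ACAT1 changes gene expression in each state. The deposited values are raw counts of each gene, and levels are given here as CPM relative to a library's effective size, after TMM scaling of all 12 libraries together.

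Each nucleosome wraps DNA around pairs of the core histones H2A, H2B, H3 and H4, and an H1 linker histone sits where the DNA enters and leaves. Replication-dependent histone genes lie in clusters, mostly lack introns, and are transcribed in S phase to package new DNA. Their mRNAs typically end in a short stem-loop that binds SLBP in place of a poly(A) tail, and they are broken down when replication stops. Replacement variants are typically made throughout the cell cycle from ordinary polyadenylated mRNAs. Some replication-dependent genes also give longer polyadenylated transcripts, often in cells that have left the cycle. In RNA from a mass of cells, fewer cells in S phase and less histone mRNA per cell cannot be told apart.

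Counts per library ranged from 56948593 to 167280149, and histone members took 0.0677% to 0.142% of them. Acat1 had 80.8 to 108 CPM in unstimulated WT and 25.5 to 28.9 CPM in unstimulated ACAT1 KO libraries, and 65.0 to 95.4 and 18.5 to 19.9 CPM after LPS, so no library went against its label. All 8 macrophage markers examined were listed, among them Csf1r at 1308 to 1743 CPM and the lowest, Mrc1, at 2.26 to 13.2 CPM. Of the T cell, B cell and neutrophil markers, only Cd4, Cd79a and S100a8 were listed, at no more than 0.198, 0.938 and 5.14 CPM, and no epithelial marker was. Of the fibroblast markers Pdgfra reached 12.95 CPM and Col1a1, listed in 6 libraries, 0.162 CPM. Among unstimulated libraries, WT replicates 1 and 2 and KO replicate 2 held more counts in noncoding genes that lie mostly within exons of the other strand, 0.0496%, 0.0657% and 0.0733%, against at most 0.0202% in the other 3. Unstimulated genotype differences and class sums are also given within each of these sets, and the LPS and interaction calls with a term for the 3 libraries.

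Most replication-dependent members were barely detected. Of the 54, 41 averaged below 0.5 CPM, 8 averaged over 1 CPM and 2 over 10 CPM, whereas 5 of the 6 replacement variants averaged over 10 CPM. The total of the replication-dependent class was made largely of a single gene: H1f2, which encodes a replication-dependent linker histone, held 56.6% of it on average, followed by the H2B genes H2bc4 with 13.3%, H2bc21 with 5.67% and H2bc8 with 4.18%, the H4 gene H4c9 with 3.35% and the H2A gene H2ac10 with 2.25%. Among unstimulated libraries, H2ac10 was highest in those 3 named above, at 3.98 and 4.32 CPM in WT replicates 1 and 2 and 3.64 CPM in KO replicate 2, against 1.65 to 2.03 CPM in the other 3.

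Scaled to the length of the annotated exons, so that genes can be compared, the highest replication-dependent gene of each type was H1f2 at 31.7 CPM per kb, H2bc4 at 9.46, H2ac10 at 4.97, H4c9 at 3.64 and H3c4 at 0.603. Of the replacement variants, 4 stood above all of these and H2az2 above all but H1f2. H2az1, the main gene of H2A.Z, a variant found at promoters and regulatory elements, averaged 296 CPM per kb. H2ax, the variant phosphorylated around DNA breaks, averaged 76.2, H1f0, the linker histone of slowly dividing and differentiated cells, 70.8, H2aj 49.7 and H2az2, the second H2A.Z gene, 24.7 CPM per kb. The sixth, the oocyte linker histone H1f8, was listed only after LPS, at 0.0447 to 0.211 CPM.

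The replication-dependent members fell into 3 places of GRCm38, with 46 in the large cluster at chr13:21715763-23764406, 7 at chr3:96220361-96270132 and H2aw alone at chr11:58954685-58956830. The stem-loop was searched in the annotated transcripts as a stem of 6 base pairs closed by a loop of 4 bases. The stem had to start with GG and end in T, and the loop had to start with TTT. The search was thus for the histone form and not for any hairpin of that size. It was found in 36 of the 54 replication-dependent members, 66.7%, and in 57 of all 55450 annotated genes, 0.103%. Of the 6 replacement variants, H2ax held one. The sequences of the members on which the results turn are shown because they set the H4 genes and H2ax apart from the other types, with the 16 bases of stem and loop in capitals and 5 bases on each side, read 5′ to 3′ on the mRNA strand.
H1f2: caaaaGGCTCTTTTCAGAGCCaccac
H2bc8: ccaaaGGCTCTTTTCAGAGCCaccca
H3c4: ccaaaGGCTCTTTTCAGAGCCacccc
H4c9: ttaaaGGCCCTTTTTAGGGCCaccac
H4c14: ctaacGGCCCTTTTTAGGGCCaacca
H4c18: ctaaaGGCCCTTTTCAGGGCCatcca
H2ax: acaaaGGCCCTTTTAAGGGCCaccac

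The form of H1f2, H2bc8 and H3c4 was the commonest, with 21 members of the H1, H2A, H2B and H3 types and no H4 gene. Most H4 genes with a stem-loop carried a stem with a different middle, and H2ax shared that stem with a different loop. H4c2 and H4c11 carried another stem. How far the annotated transcript runs beyond the stem-loop differed widely: 31 bases in H4c18, 155 in H2bc8, 330 in H4c9, 752 in H3c4, 822 in H2ax, 840 in H1f2 and 1257 in H4c14. The replication-dependent members split evenly, with 18 that end under 100 bases past the stem-loop and 18 that run 100 bases or more past it. The other 18, including H1f5, H2bc4 and H2bc21, had no stem-loop in an annotated transcript. Some of these are annotated as short transcripts, such as H2bc13, H2bc15 and H2bc18 with 381 bases, H3c10 and H3c11 with 411 and H4c12 with 312. In such genes an absent stem-loop may reflect an annotation that stops before it, which was not tested.

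These annotation classes differed in how high their members reached. None of the 18 that end near the stem-loop averaged over 1 CPM, and the highest per length was H2ac7 at 1.02 CPM per kb. Of those that run on, 5 averaged over 1 CPM, H1f2 the highest. Of those without a stem-loop, 3 did, H2bc4 the highest at 9.46 CPM per kb. The medians lay closer together, at 0.183, 0.236 and 0.311 CPM per kb. Whether the RNA was selected by its poly(A) tail is not given in the sources used here, and its part in these levels was not tested.

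**Figure D1:**
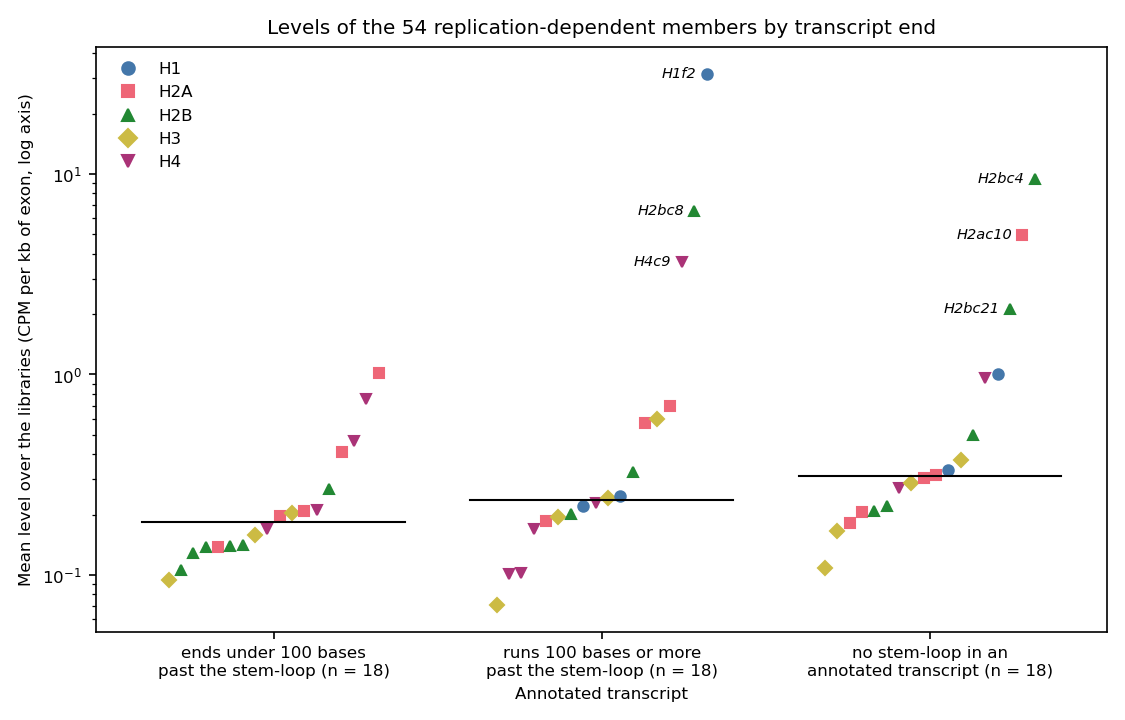
Mean level over the libraries, in CPM per kb of exon on a log axis, of the 54 replication-dependent members, grouped by how the annotated transcript ends, with a symbol for each histone type and a line at each median. The group that ends near the stem-loop tops out at H2ac7 with 1.02, while H1f2 at 31.7 and H2bc4 at 9.46 lead the other groups.

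Several H2A and H2B genes are transcribed away from each other from a shared stretch of DNA. There were 8 such pairs with starts at most 500 bases apart, and the H2A gene had the higher level per length in 5 of them, though 3 H2B genes stood far above their partners. Across 239 bases on chromosome 3, H2bc21 averaged 2.13 CPM per kb and H2ac20 0.410. Across 251 bases on chromosome 13, H2bc4 averaged 9.46 and H2ac6 0.187, and across 176 bases H2bc8 averaged 6.55 and H2ac8 0.575 CPM per kb. H2ac7 averaged 1.02 CPM per kb against 0.141 for H2bc7, and in the 4 pairs not named here both genes averaged between 0.129 and 0.317 CPM per kb.

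Promoters were examined in RefSeq sequences of GRCm38.p6, in the 250 bases before each gene's start and on both strands, for 48 of the replication-dependent members. CCAAT, the box bound by NF-Y, was present in 83.3% of them and in 34.5% of all 27025 promoters. It was also present in 4 of the 5 replacement variants examined, 80%. TATAAA, a form of the TATA box, was present in 47.9% of the 48 and in 12.97% of all promoters, and in 0 of those 5 variants. The promoter of H1f2 is shown as that of the gene that dominates the class, chr13:23738647-23738806 on the plus strand, with CCAAT in capitals: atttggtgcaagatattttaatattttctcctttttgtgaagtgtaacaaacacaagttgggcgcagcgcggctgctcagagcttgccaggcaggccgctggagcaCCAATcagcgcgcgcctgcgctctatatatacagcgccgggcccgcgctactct. These matches describe the sequence and not a bound site.

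Near-identical copies limit what single members can show. Of all 100-base stretches of a member's transcript, the share also found in another gene was 5.07% for H1f2, 25.4% for H2bc4, 44.9% for H2bc8, 79.3% for H2ac10 and 80.7% for H4c18, and 0 for H2bc21, H1f5, H4c14 and H2az2. All 11 H3 genes shared 10% or more, as did 15 of 19 H2A, 11 of 14 H2B and 9 of 11 H4 genes. Counts of such members may have been divided among copies by the authors' counting, so sums over each class were examined first. Such sums do not cover sharing with genes outside the members. For H4c18, only 15.1% of stretches were shared with another member.

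In unstimulated cells the replication-dependent mRNAs summed to 136 ± 17.6 CPM in WT and 89.8 ± 14.4 CPM in ACAT1 KO libraries (SD, n = 3), a ratio of the means of 0.659. The WT libraries lay between 116 and 149 CPM and the KO libraries between 73.2 and 99.1 CPM, without overlap. Within WT replicates 1 and 2 and KO replicate 2 the ratio was 0.50, and within the other 3 libraries it was 0.844. After LPS the sums were 79.5 ± 17.0 CPM in WT and 42.3 ± 3.23 CPM in KO libraries (SD, n = 3), a ratio of 0.532, and again every KO library, at 38.6 to 44.8 CPM, was below every WT library, at 66.7 to 98.7 CPM. Without H1f2 the ratios were 0.717 and 0.618. The unstimulated ratio without H1f2 was 0.573 within WT replicates 1 and 2 and KO replicate 2, and 0.890 within the other 3 libraries. No test is given for sums over members.

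The sum of the replacement variants did not share this pattern. Most of it was H2az1, with means of 538 and 592 CPM in unstimulated WT and KO libraries and 464 and 510 CPM after LPS. The variants together summed to 1036 ± 60.8 CPM in WT and 1111 ± 70.5 CPM in KO libraries without stimulation (SD, n = 3). Their ranges overlapped, 969 to 1088 and 1035 to 1174 CPM. After LPS the sums were 714 ± 16.2 and 772 ± 9.29 CPM (SD, n = 3), where the KO libraries, from 762 to 781 CPM, all lay above the WT libraries, from 696 to 725 CPM. The ratios of KO to WT were 1.07 and 1.08. Within the same sets of unstimulated libraries the ratio was 1.02 and 1.06. Replication-dependent mRNAs were therefore a smaller share of all member counts in KO cells, 7.44% against 11.7% unstimulated and 5.19% against 9.97% after LPS.

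By type, the KO to WT ratio of the replication-dependent sums was below 1 throughout. Unstimulated it was 0.618 for H1, 0.694 for H2A, 0.739 for H2B, 0.612 for H3 and 0.713 for H4, and after LPS 0.485, 0.739, 0.562, 0.619 and 0.715. The unstimulated H2A sums overlapped, with KO replicate 2 at 6.27 CPM and WT replicate 3 at 6.14 CPM. The H2B sums nearly met, at 31.6 CPM in KO replicate 3 and 31.8 CPM in WT replicate 3. H1f2 made up most of the H1 sum. The H3 sum was small, 3.08 ± 0.697 CPM in WT and 1.89 ± 0.433 CPM in KO libraries without stimulation (SD, n = 3).

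**Figure D2:**
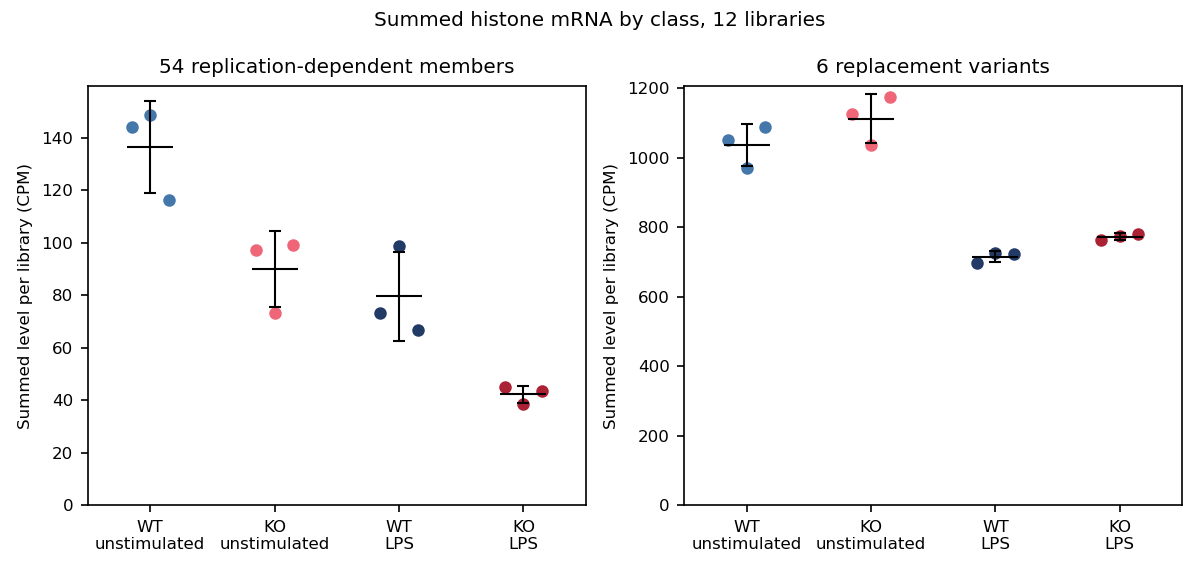
Summed level in CPM of the 54 replication-dependent members (left) and the 6 replacement variants (right), 1 point per library, with the mean and SD of each group of 3. In the left panel KO lies below WT in both states, 89.8 against 136 and 42.3 against 79.5 CPM, and in the right panel the sums fall with LPS, from 1036 to 714 CPM in WT and from 1111 to 772 CPM in KO cells.

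Testing gene by gene in unstimulated cells, no histone member passed. Of 43 members tested by edgeR's quasi-likelihood test, 0 had a Benjamini-Hochberg adjusted p under 0.05, where 1.91% of all 16440 genes tested did and 1.17% as lower. At an unadjusted p under 0.05 there were 11 lower members, 25.6% against 9.93% of all genes, and 1 higher member, H2ax, 2.33% against 9.73%. DESeq2 called 3 at its adjusted p, H1f2, H2ac7 and H2bc4, all lower in KO cells. Of the 37 replication-dependent members tested, 34 had a log2 fold change below 0, with a median of -0.59 beside a median of 0.0035 over all genes. Of the 5 replacement variants 1 was below 0, and their median was 0.15.

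H1f2 had 83.7, 84.0 and 65.6 CPM in the 3 unstimulated WT libraries and 53.9, 37.4 and 52.3 CPM in the KO libraries. The groups did not overlap, and the fold change was -0.69 on the log2 scale (SE 0.159, edgeR adjusted p = 0.0817). H2bc4 had 14.4, 16.7 and 13.1 CPM in WT and 9.96, 7.73 and 11.5 CPM in KO libraries, again without overlap, with -0.59 on the log2 scale (SE 0.161, edgeR adjusted p = 0.114). H2ac7, which is listed only in unstimulated cells, had 1.03, 0.794 and 0.615 CPM in WT and 0.391, 0.272 and 0.388 CPM in KO libraries, -1.20 on the log2 scale (SE 0.270, edgeR adjusted p = 0.0795). In all, 13 of the 43 members had every KO library below every WT library, 30.2%, against 13.2% of all genes.

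The size of this difference varied with which libraries were set against each other. Over all 6, 35 of 37 replication-dependent members had a mean log2 level lower in KO, with a median difference of -0.52. Within WT replicates 1 and 2 and KO replicate 2, the libraries rich in other-strand counts, 36 of 37 were lower and the median was -0.88. Within the other 3 libraries 26 of 37 were lower and the median was -0.16. For H1f2 the differences were -1.16 and -0.31. With a term for those 3 libraries edgeR called 1 member, H4c18, and in a fit of all 12 libraries it called 1, H1f2 (adjusted p = 0.0389). WT replicate 1 also held more mitochondrial counts, 9.32% against 2.79% to 4.04% in the other unstimulated libraries, and their part in the result was not tested.

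None of the 5 replacement variants tested in unstimulated cells was called by edgeR, and 1 had an unadjusted p under 0.05. H1f0 had 238, 215 and 238 CPM in WT and 241, 196 and 220 CPM in KO libraries, -0.06 on the log2 scale (SE 0.0893, adjusted p = 0.758). H2ax was the member with the clearest difference in the other direction, with 103, 135 and 123 CPM in WT and 142, 143 and 141 CPM in KO libraries, which did not overlap, and a log2 fold change of 0.25 (SE 0.0985, edgeR adjusted p = 0.229). H2az1 had 560, 489 and 564 CPM in WT and 581, 551 and 643 CPM in KO libraries, groups that overlapped. Its log2 fold change was 0.15, H2az2 had 0.21 and H2aj 0.06, with edgeR adjusted p of 0.426, 0.379 and 0.825.

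**Figure D3:**
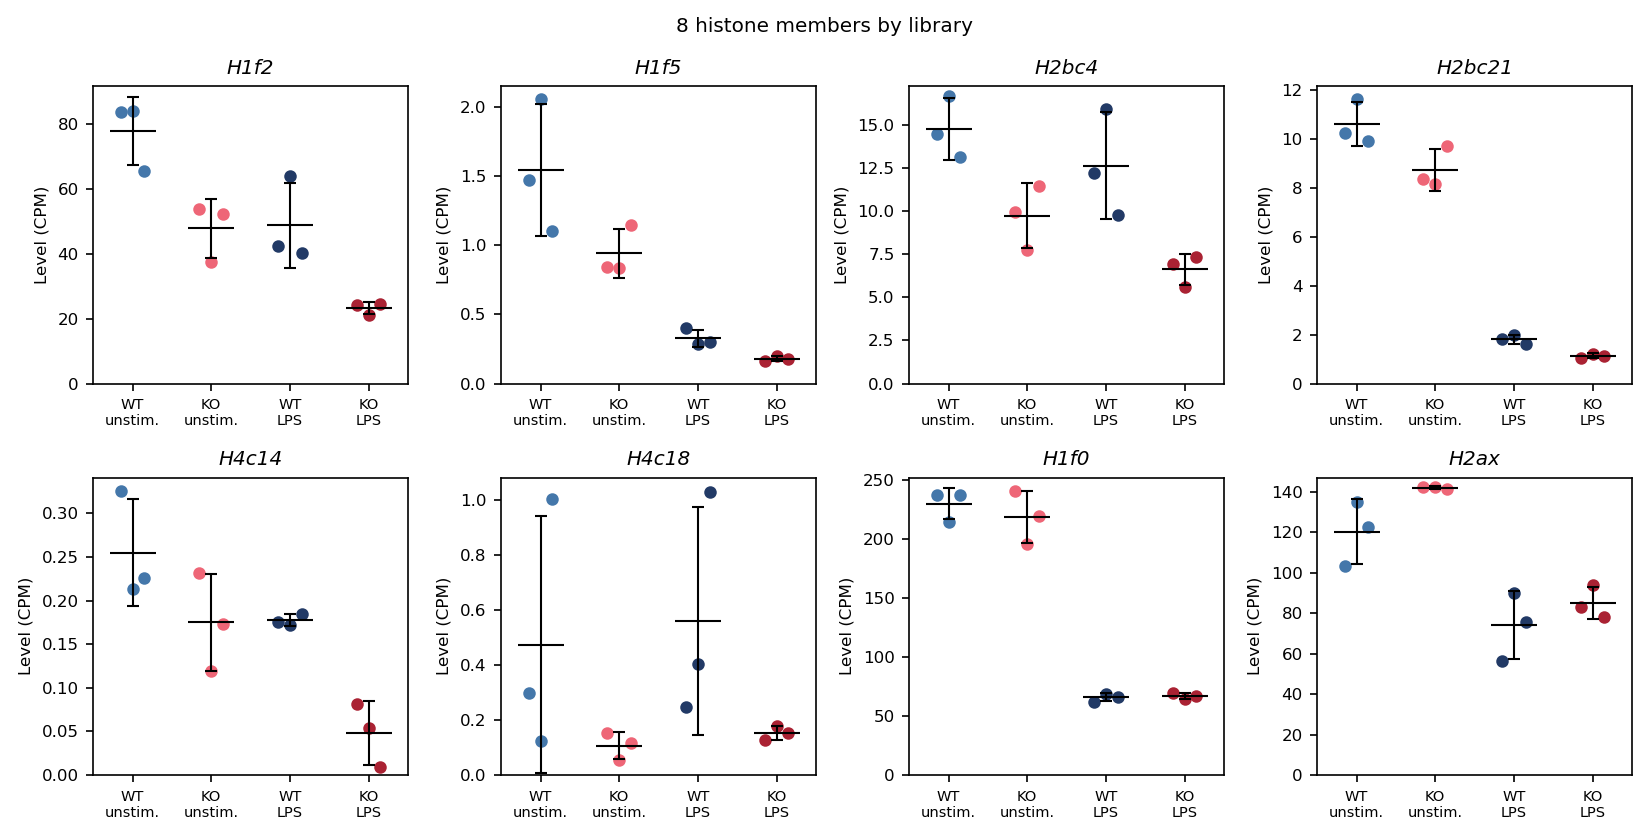
Level in CPM of 8 members in each library, with the mean and SD of each group of 3. H1f2, H2bc4, H2bc21 and H1f5 are lower in KO than in WT after LPS in every library, H1f0 falls with LPS in both genotypes, to 62.4 to 69.4 CPM, and H4c18 is high in WT replicate 3 of each state, 1.00 and 1.03 CPM.

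After LPS, 6 of 39 members tested were called between genotypes, all lower in ACAT1 KO cells, 15.4% of the members where 15.1% of all 16483 genes were called in either direction and 9.12% as lower. They were the linker histones H1f2 and H1f5, the H2B genes H2bc4 and H2bc21 and the H4 genes H4c14 and H4c18. At an unadjusted p under 0.05, 19 members were lower, 48.7% against 17.2% of all genes, and 2 were higher, H2az1 and H2az2, 5.13% against 14.1%. Every KO library was below every WT library for 21 members, 53.8% against 21.9%. Of 32 replication-dependent members 30 were below 0, with a median of -0.64 beside -0.0041 over all genes.

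H1f2, at chr13:23738808-23740367 on the plus strand, had 42.3, 63.8 and 40.3 CPM in the WT libraries after LPS and 24.4, 21.2 and 24.4 CPM in the KO libraries. All KO values were below all WT values, and H1f2 fell by 1.04 on the log2 scale (SE 0.167, edgeR adjusted p = 0.00804). It was the member whose call held in all 6 fits that left out a library. H1f5, another replication-dependent linker histone at chr13:21779883-21780625 on the minus strand, had 0.399, 0.284 and 0.304 CPM in WT and 0.163, 0.197 and 0.181 CPM in KO libraries, a log2 fold change of -0.82 (SE 0.230, edgeR adjusted p = 0.0480) that was lost in each of the 6 such fits, with adjusted p from 0.0749 to 0.135, and under 6 other settings, DESeq2 among them (adjusted p = 0.128).

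H2bc4, at chr13:23684199-23692908 on the plus strand, had 12.2, 15.9 and 9.77 CPM in WT and 6.93, 5.62 and 7.33 CPM in KO libraries after LPS. The groups did not overlap, and it fell by 0.91 on the log2 scale (SE 0.180, edgeR adjusted p = 0.0166), a call lost without KO replicate 1 or 2 (adjusted p = 0.0523 and 0.0634). H2bc21, at chr3:96221119-96223738 on the plus strand, had 1.83, 1.99 and 1.61 CPM in WT and 1.05, 1.23 and 1.14 CPM in KO libraries, again apart, at -0.64 (SE 0.141, edgeR adjusted p = 0.0232). Its call was lost without WT replicate 2 or any KO library, with adjusted p from 0.0645 to 0.0781. H2bc8 had 1.25, 1.67 and 1.46 CPM in WT and 1.20, 1.00 and 1.10 CPM in KO libraries and was not called, at -0.39 (SE 0.157, edgeR adjusted p = 0.131).

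The H4 genes rested on few counts or on 1 library. H4c14, at chr3:96261682-96263311 on the minus strand, had 0.176, 0.172 and 0.185 CPM in WT and 0.0815, 0.0537 and 0.00952 CPM in KO libraries, the last being 7, 6 and 1 counts. It fell by 1.89 on the log2 scale (SE 0.466, edgeR adjusted p = 0.0325), and was at -1.39 without KO replicate 3 (adjusted p = 0.0643). H4c14 also lost its call without WT replicate 2 or 3 or KO replicate 2, with adjusted p from 0.0776 to 0.0960, and with the replicate block (adjusted p = 0.0594), and DESeq2 gave it no adjusted p. H4c18, at chr13:21831767-21832196 on the minus strand, had 0.246, 0.405 and 1.03 CPM in WT and 0.128, 0.179 and 0.152 CPM in KO libraries, with WT replicate 3 far above the rest. H4c18 fell by 1.90 (SE 0.531, edgeR adjusted p = 0.0484) and was at -1.05 without WT replicate 3 (adjusted p = 0.0754). Its call was also lost without WT replicate 2 or any KO library (adjusted p from 0.0713 to 0.132), and with upper-quartile scaling, limma-voom and the fit of all 12 libraries. The most abundant members of the remaining types were not called, H2ac10 at -0.51, H3c4 at -0.65 and H4c9 at -0.25, with edgeR adjusted p of 0.0965, 0.0861 and 0.366.

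Replacement variants after LPS were not called in either direction by edgeR. H1f0 had 62.4, 69.2 and 66.4 CPM in WT and 69.4, 64.3 and 67.3 CPM in KO libraries, groups that overlapped, with a log2 fold change of 0.04. H2az1 had 457, 462 and 474 CPM in WT and 505, 502 and 524 CPM in KO libraries, which did not overlap, with 0.16 on the log2 scale (SE 0.0532, edgeR adjusted p = 0.0848), and DESeq2 called it (adjusted p = 0.0396). H2az2 had 31.7, 29.6 and 33.2 CPM in WT and 33.7, 38.3 and 35.0 CPM in KO libraries, also apart, at 0.20 (edgeR adjusted p = 0.101). H2ax at 0.22, H2aj at -0.06 and H1f8 at -0.58 had edgeR adjusted p of 0.360, 0.643 and 0.515.

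**Figure D4:**
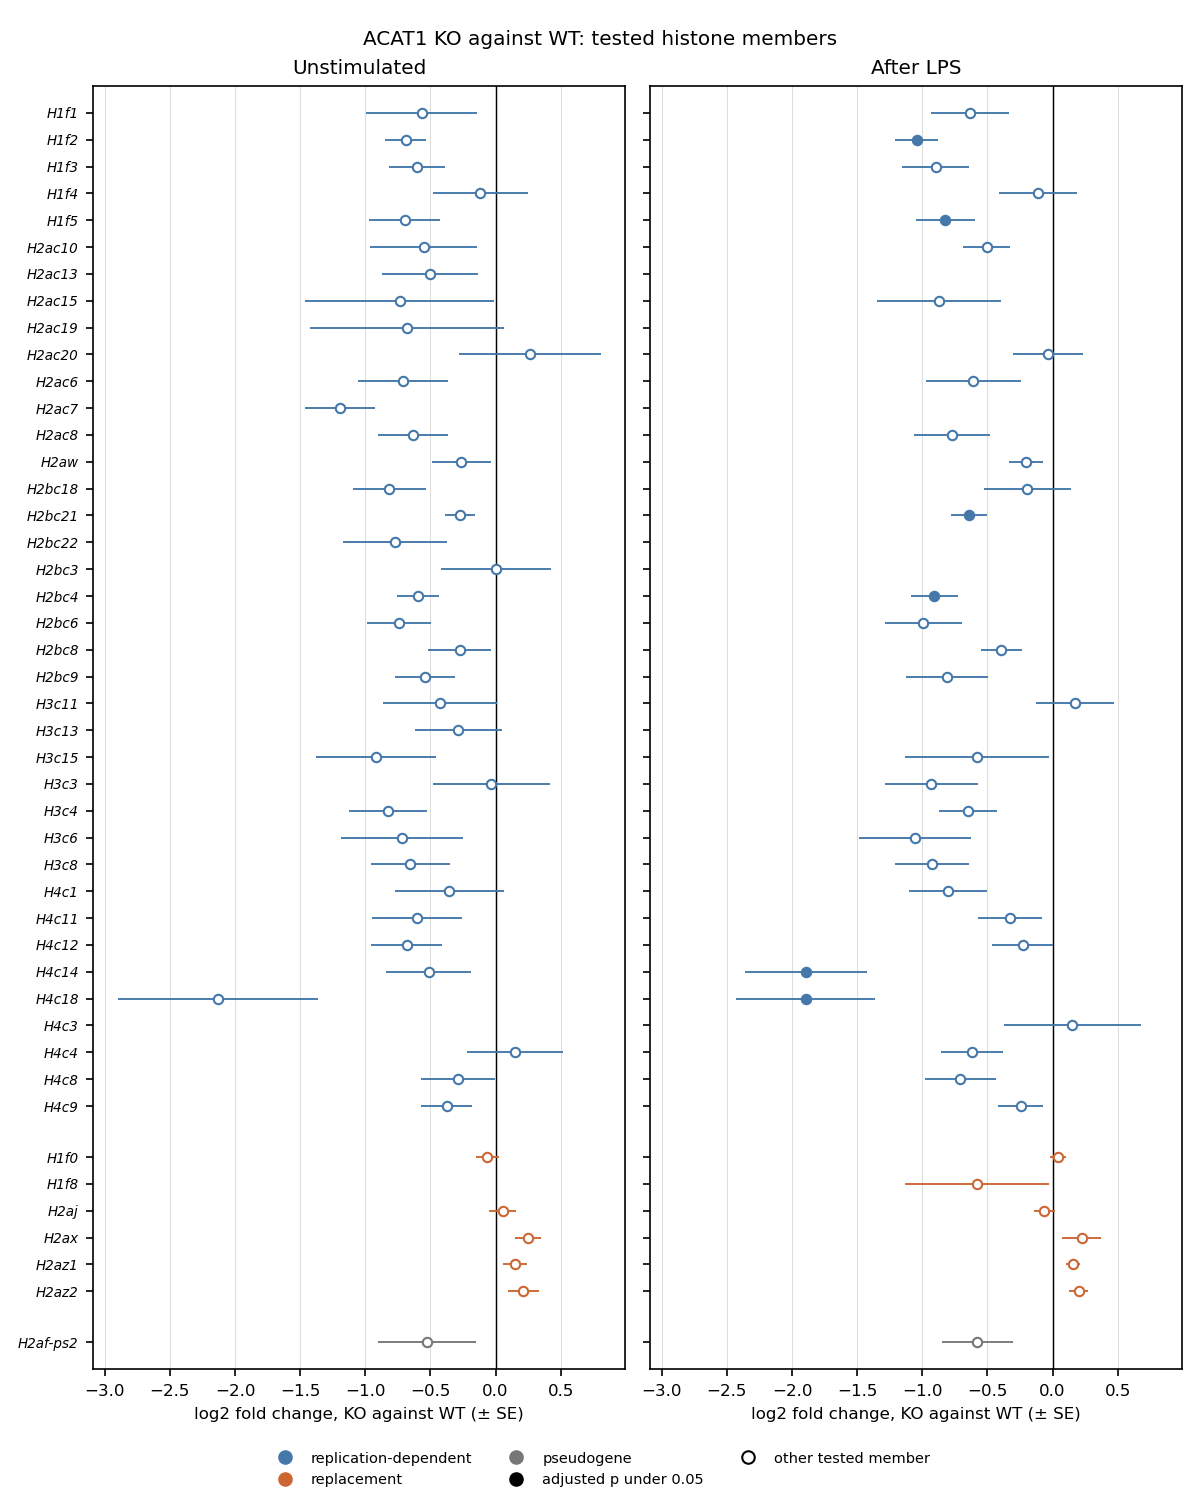
Log2 fold change of ACAT1 KO against WT, with its SE, for the histone members tested in unstimulated cells (left, 43 members) and after LPS (right, 39 members), where filled points passed the adjusted threshold. Most replication-dependent members lie left of 0, 34 of 37 and 30 of 32, with 0 and 6 filled points, and the replacement variants lie between -0.06 and 0.25 except H1f8 at -0.58.

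After LPS the summed histone mRNAs of both classes were lower in both genotypes. Single members varied: of 42 replication-dependent members tested, 32 were below 0 and 10 above in each genotype. The H4 genes among them split into 5 below and 5 above 0 in each genotype. In WT cells 19 of 48 members were called, all lower, 39.6% of the members, where 57.4% of all 16535 genes were called, 28.0% as lower and 29.3% as higher. In ACAT1 KO cells 20 were called, all lower, 41.7%, where 60.7% of all genes were called, 31.2% as lower and 29.5% as higher. The lists shared 17 members, 89.5% of the first and 85.0% of the second. Those called in WT alone were H2bc15 and H4c9 and those called in KO alone were H2bc3, H2bc4 and H4c14, which does not show that their responses differed. All 5 replacement variants tested were called in both genotypes.

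Among the linker histones, H1f0 fell from 215 to 238 CPM to 62.4 to 69.2 CPM in WT and from 196 to 241 CPM to 64.3 to 69.4 CPM in KO cells, with log2 fold changes of -1.80 (SE 0.0804) and -1.71 (SE 0.0802), with edgeR adjusted p of 5.78e-09 and 6.66e-09. In WT and KO cells H1f5 fell with log2 fold changes of -2.23 and -2.38, H1f3 of -1.37 and -1.68 and H1f2 of -0.67 and -1.04, the last with edgeR adjusted p of 0.00767 and 0.000408. The ranges of the states did not overlap for H1f0, H1f5 or H1f2 in either genotype. H1f4 was near 0 at -0.01 and -0.03, and H1f1 had 0.88 and 0.77, with edgeR adjusted p of 0.0591 and 0.0983.

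The largest falls were in H2B genes, and genes of this type differed widely among themselves. H2bc21 went from 10.2, 11.6 and 9.92 CPM to 1.83, 1.99 and 1.61 CPM in WT and from 8.35, 8.14 and 9.69 CPM to 1.05, 1.23 and 1.14 CPM in KO cells, with log2 fold changes of -2.55 (SE 0.124) and -2.94 (SE 0.127), with edgeR adjusted p of 1.12e-08 and 3.65e-09. H2bc8 went from 7.92, 8.50 and 6.04 CPM to 1.25, 1.67 and 1.46 CPM in WT and from 5.81, 4.44 and 8.17 CPM to 1.20, 1.00 and 1.10 CPM in KO cells, with log2 fold changes of -2.35 and -2.48. For both genes every LPS library was below every unstimulated library of its genotype. H2bc9 fell as well, at -1.24 and -1.53, and H2bc6 at -0.85 and -1.13. H2bc4, the most abundant H2B gene, was at -0.22 in WT (SE 0.187, edgeR adjusted p = 0.331) and fell by 0.55 in KO cells (SE 0.189, edgeR adjusted p = 0.0237), a call lost without unstimulated KO replicate 1 or 3 or LPS KO replicate 2 (adjusted p from 0.0547 to 0.0981).

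The replication-dependent H2A, H3 and H4 genes that fell in both genotypes numbered 5. Their log2 fold changes in WT and KO cells were -1.73 and -1.56 for H3c4, -0.76 and -1.05 for H3c8, -1.42 and -1.39 for H2ac10, -1.36 and -1.28 for H2ac6 and -1.50 and -1.06 for H4c12. The H3c8 call was lost under DESeq2 in both genotypes (adjusted p = 0.144 and 0.0661), in WT with the term for 3 libraries (adjusted p = 0.0697) and in WT without unstimulated replicate 2 or LPS replicate 1 or 3 (adjusted p from 0.0588 to 0.113). H4c9 fell by 0.49 in WT (edgeR adjusted p = 0.0447), a call lost without unstimulated replicate 1 or 2 or LPS replicate 1 or 3 (adjusted p from 0.0838 to 0.133). In KO cells H4c9 had -0.37 (edgeR adjusted p = 0.112).

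All 4 H2A replacement variants fell. Their log2 fold changes in WT and KO cells were -0.70 and -0.74 for H2ax, -0.48 and -0.50 for H2az2 and -0.41 and -0.54 for H2aj. H2az1 went from 560, 489 and 564 CPM to 457, 462 and 474 CPM in WT and from 581, 551 and 643 CPM to 505, 502 and 524 CPM in KO cells, with the states apart in both, and fell by 0.21 in each (SE 0.0723, edgeR adjusted p = 0.0254 and 0.0227). The call of H2az1 was lost in WT without unstimulated replicate 1 or 3 or LPS replicate 1 or 2 (adjusted p from 0.0575 to 0.0851), and in KO cells without unstimulated replicate 3 or LPS replicate 1 or 2 (adjusted p from 0.0643 to 0.108). Summed, the replication-dependent class after LPS was 0.583 of its unstimulated level in WT and 0.471 in KO cells, the H2A variants were 0.804 and 0.790 and the replacement H1 genes 0.287 and 0.307.

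**Figure D5:**
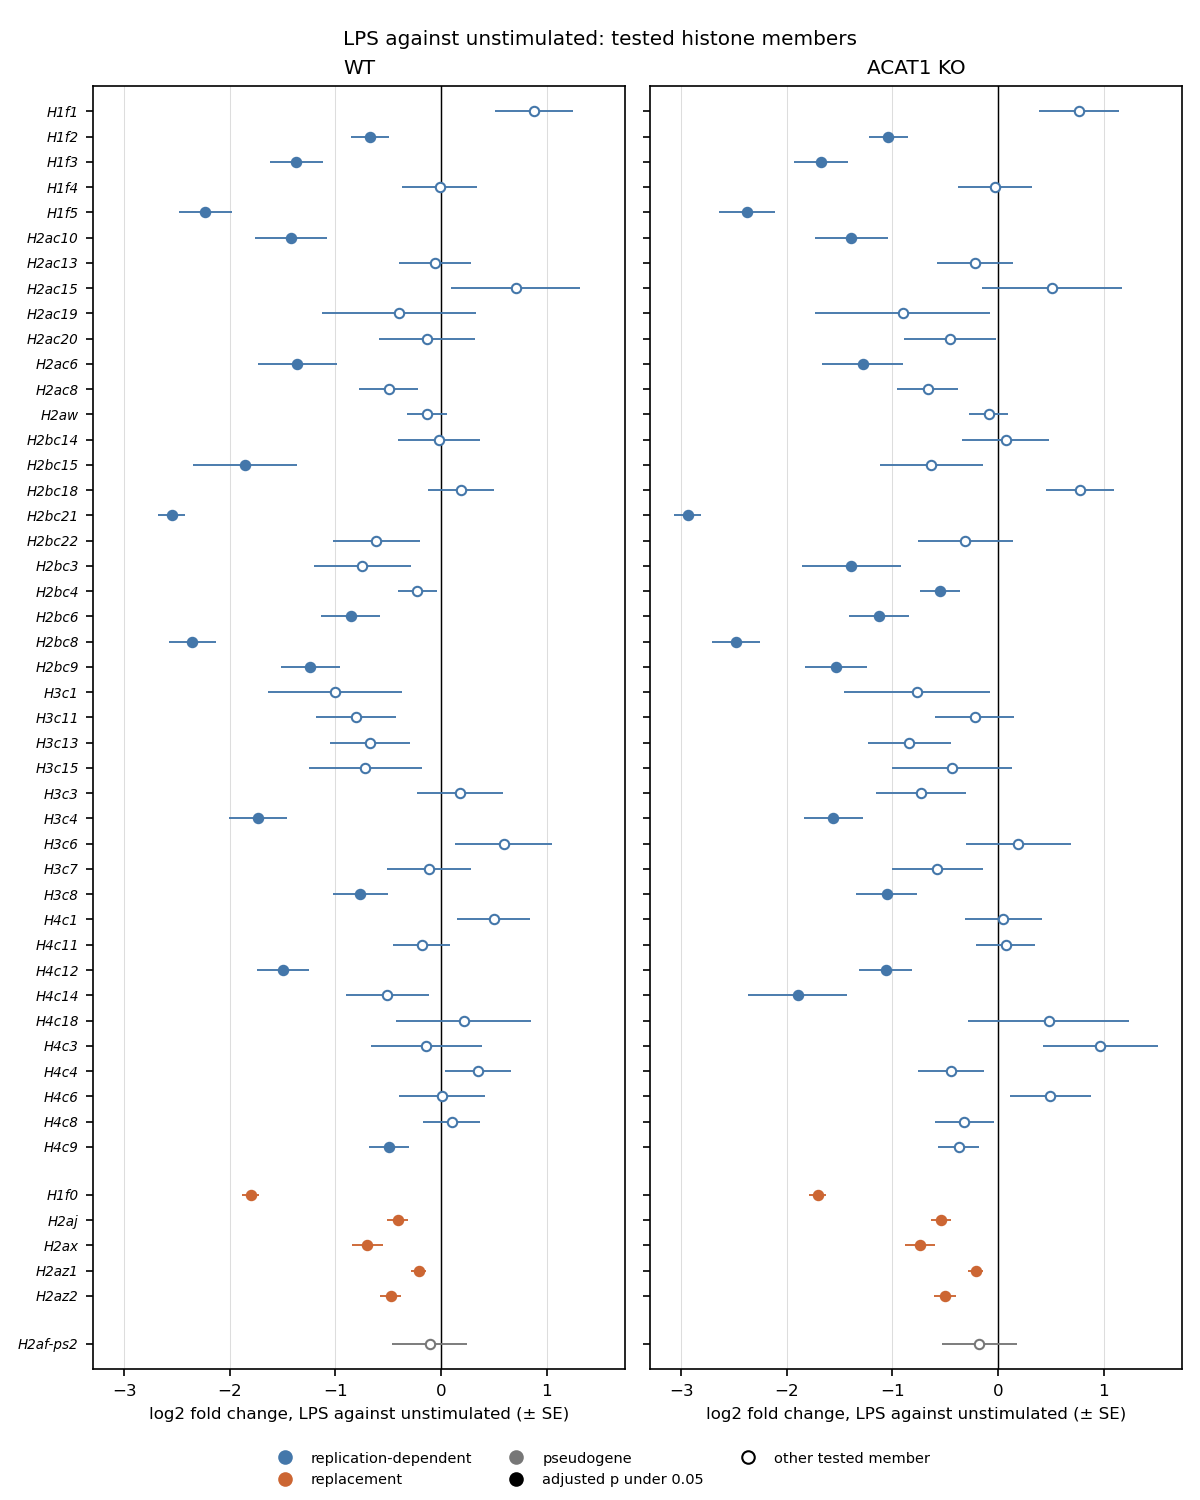
Log2 fold change of LPS against unstimulated cells, with its SE, for the 48 members tested in WT (left) and ACAT1 KO (right) cells, where filled points passed the adjusted threshold. All filled points, 19 and 20, lie left of 0, with H2bc21 farthest at -2.55 and -2.94.

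These directions held under each scaling tried, while the centre of all genes moved. The median log2 fold change of all genes was -0.018 in WT and -0.026 in KO cells with TMM, -0.23 and -0.17 with upper-quartile scaling and -0.33 in both with none. Upper-quartile scaling called 21 and 23 members lower and none higher, and over all genes it moved the split of higher to lower calls in WT from 4850 and 4638 to 3628 and 6681, and in KO from 4871 and 5166 to 3921 and 6560. With the line as a block, an inferred pairing, 22 members were called in each genotype, which added H2bc4 at -0.25, H2ac8 at -0.51 and H3c15 at -0.78 in WT (edgeR adjusted p = 0.0256, 0.0443 and 0.0325) and H2ac8 at -0.66 and H4c9 at -0.37 in KO cells (edgeR adjusted p = 0.0188 and 0.0205). With a term for the 3 libraries rich in other-strand counts, 17 members were called in WT and 21 in KO cells, all lower, and H2ac10 was at -0.64 and -0.93, still called in both.

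Whether LPS acted differently in the genotypes was tested by the interaction of genotype and LPS. Of 48 members, 0 were called by edgeR, where 0.187% of all genes were, and 0 by DESeq2, by limma-voom or with the term for 3 libraries. At an unadjusted p under 0.05 there were 2, H2bc21 at -0.38 (edgeR adjusted p = 0.524) and H4c14 at -1.39 (edgeR adjusted p = 0.529), or 4.17% against 8.92% of all genes. H1f2 had -0.37 (SE 0.259) and H1f0 0.09 (SE 0.110), so for H1f2 a difference of responses of this size was within the error.

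Genes that act on histone mRNA were examined as a list of 20, of SLBP, U7 snRNP and 3′ end factors, NPAT and its regulators and decay factors, all of which were tested. In unstimulated KO cells 1 was higher, the cell cycle transcription factor E2f1 at 0.47 (edgeR adjusted p = 0.0368), and 1 lower, Cpsf2 at -0.40 (edgeR adjusted p = 0.0368), whose product CPSF100 is part of the complex that cuts histone pre-mRNA. After LPS 1 was higher and 6 lower in KO cells, 5% and 30% of the list. Among the lower were Cpsf2 at -0.49 (edgeR adjusted p = 0.00373), Cdk2 at -0.46 and its cyclin Ccne1 at -0.72. The medians of the list were -0.025 and -0.12. Of all genes tested, 1.17% were called lower unstimulated and 9.12% after LPS. Slbp had 52.8 to 67.4 CPM in WT and 60.3 to 62.9 CPM in KO libraries without stimulation, overlapping, and 43.0 to 49.4 and 38.3 to 41.2 CPM after LPS, apart, with log2 fold changes of 0.06 and -0.19 and edgeR adjusted p of 0.767 and 0.105.

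LPS raised 8 and lowered 7 of this list in WT, 40.0% and 35.0% beside 29.3% and 28.0% of all genes, and raised 7 and lowered 8 in KO cells, 35.0% and 40.0% beside 29.5% and 31.2%. Upf1, an RNA helicase needed for histone mRNA decay, rose, at 0.86 and 0.81, and Ccne1 fell, at -1.37 and -2.18. Slbp fell, at -0.35 and -0.62, with edgeR adjusted p of 0.00335 and 4.8e-05.

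Markers of cell cycle phase were set beside the histone genes. Of 40 S phase genes, 0 were called higher and 1 lower in unstimulated KO cells, Pola1 at -0.80, with 29 above 0 and a median of 0.085, where the replication-dependent median was -0.59. After LPS 4 were higher and 6 lower, 10% and 15% of the list, with a median of -0.066. Of 24 genes of G2 and mitosis, 1 and then 3 were called higher in KO cells, 4.17% and 12.5%, and none lower. Their medians were 0.25 and 0.14. Over all genes tested, 122 were higher and 192 lower of 16440 unstimulated, and 977 and 1504 of 16483 after LPS. LPS lowered 29 of the S phase genes in WT and 35 in KO cells, 72.5% and 87.5%. Of the G2 and mitosis genes it lowered 20 and 21, 83.3% and 87.5%. It raised none of either list, where 28.0% and 31.2% of all genes fell and 29.3% and 29.5% rose. These markers thus moved with the histone genes under LPS, and their part in that result was not tested. The S phase list summed to 4657 to 5079 CPM in WT and 4851 to 5402 CPM in KO libraries without stimulation, and to 3627 to 3879 and 3276 to 3734 CPM after LPS, overlapping between genotypes in each state.

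Histone variants outside the naming rule showed no call between genotypes in 6 tested. LPS raised H3f3b, a gene of the H3.3 variant, by 0.61 in WT and 0.69 in KO cells (edgeR adjusted p = 0.000432 and 0.000159) and lowered Cenpa, the centromeric H3, at -0.83 and -0.93. H3f3a, which encodes the same H3.3 protein, had -0.13 in WT (edgeR adjusted p = 0.103) and fell by 0.29 in KO cells. The H4 gene H4f16 rose by 0.94 in WT (edgeR adjusted p = 0.0115) and had 0.08 in KO cells. The macroH2A genes were not called under LPS in WT or KO cells. Macroh2a1 had 0.06 and 0.09 and Macroh2a2 -0.65 and -0.24 (edgeR adjusted p from 0.0695 to 0.519).

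Among 28 chaperone and exchange genes, 0 were called between genotypes in unstimulated cells, where 1.91% of all genes were. After LPS 3 were lower in KO cells, 10.7%, near the 9.12% of all genes called lower. They were Ubn1, of the complex that deposits H3.3, at -0.34, Tonsl, which binds new H4 at replication forks, at -0.45, and Nap1l1, which carries H2A and H2B, at -0.26. LPS raised 9 and lowered 9 of them in WT, 32.1% each, near the shares of all genes. In KO cells it raised 9 and lowered 11, 32.1% and 39.3%, beside 29.5% and 31.2% of all genes. Daxx, an H3.3 chaperone, rose by 3.16 and 3.45 and the H3 and H4 chaperone Supt6 by 1.26 and 1.43, while Tonsl fell, at -1.33 and -1.67.

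RNAs of other kinds that lack a poly(A) tail, 152 listed genes, were set beside the histone genes. Whether the capture of RNAs without a tail differed between libraries was not tested. Between genotypes 0 of 104 of these genes tested were called in unstimulated cells and 1 of 95, lower, after LPS. Of all genes 1.91% and 15.1% were called. Their medians were -0.11 in both, with 65 and 63 genes below 0, beside medians of 0.0035 and -0.0041 over all genes. They summed to 42.8 to 57.9 CPM in WT and 40.6 to 48.8 CPM in KO libraries without stimulation and 58.7 to 65.4 and 55.4 to 60.9 CPM after LPS, overlapping in both states. LPS raised 24 and lowered 12 of 118 in WT, 20.3% and 10.2%, beside 29.3% and 28.0% of all genes. In KO cells it raised 21 and lowered 11, 17.8% and 9.32%, beside 29.5% and 31.2%. Genes within 2 Mb of the chromosome 13 cluster that are not histone genes had medians of -0.082 over 36 genes and -0.087 over 35 between genotypes, with 0 and 3 called lower, the latter 8.57% beside 9.12% of all genes. Around the chromosome 3 cluster, where H2bc21 and H4c14 lie, the medians were -0.020 over 111 genes and -0.062 over 108, with 4 and 13 called lower, 3.60% and 12% beside 1.17% and 9.12% of all genes.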

How the data were processed

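RNA-seq counts of 12 J774A.1 libraries were analysed, in 4 groups given by the labels (genotype and treatment). Per the paper's methods, libraries were directional, with trimming by Trimmomatic 0.33, alignment to GRCm38 by HISAT2 and quantification by StringTie. The authors deposited raw counts per gene, in a table for each state, where 5 or more of the 6 libraries hold 4 or more counts of each gene, so silent genes are missing. The tool that gave whole counts, its use of strand and the RNA selection are not given in the sources used here. The authors' fold changes, p-values and 12 columns of log2 values per library were not used.

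Counts were tested with edgeR 4.0.16 in R 4.3.3 (filterByExpr, TMM, two-sided quasi-likelihood test, Benjamini-Hochberg adjustment over all genes tested, call at adjusted p under 0.05). Genotypes were compared in each state on its 6 libraries. LPS responses and the interaction were fitted on all 12 libraries over the 16699 genes of both tables. No library was a copy of another, since over 12 same-group pairs the chi-square divided by its degrees of freedom was 31.3 to 267. Totals make clone spread, not counting error, the limit for all but the lowest genes. An exact permutation test of 3 against 3 cannot go below 0.1, so none is given.

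The labels do not say that equal numbers mark a line in both states. Deviations from group means of such pairs correlated from 0.154 to 0.389 over 6 pairs, against -0.274 to -0.00625 between different numbers, so a block for the line was also fitted. Stem-loops and shared stretches were read from the GENCODE annotation of GRCm38 and promoters from RefSeq. The scripts were tested on simulated data. Members, lists and tests were chosen with earlier results of these data known. Members named are those called, at most 3 per type and direction where many were, the replacement variants and the most abundant of each type. Alternatives were DESeq2 1.42.0, limma-voom 3.58.1, other scalings and filters, replicate blocks, a fit of all 12 libraries and each library left out. A term for the 3 libraries rich in other-strand counts was also tried. The sums without H1f2, that term for LPS and the interaction and the values within sets of libraries were added after the data were seen.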

Additional observations from a re-analysis of the deposited data

How the results depend on the processing

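Unstimulated genotype calls were 0 with 6 alternatives, including the replicate block, and in all 6 fits without a library, but 3 with DESeq2, 1 in the fit of all 12 libraries and 1 with the term for 3 libraries. After LPS 6 members were called, 4 to 7 under the other settings, 4 with the replicate block, and 1 to 6 without a library. LPS calls ranged from 16 to 20 in WT and 17 to 21 in KO cells without a library, and from 17 to 23 and 17 to 25 otherwise. The replicate numbers did not pair genotypes, with correlations from -0.326 to 0.724, so the block across them says little. Values that changed sign were near 0 or poorly measured: H2aj unstimulated (0.06, and -0.012 with the term for 3 libraries, -0.023 to 0.13 without a library), H1f0 unstimulated (-0.15 to 0.0091), H2aj after LPS (-0.10 to 0.030), and the interactions of H1f5 (-0.41 to 0.049) and H4c18 (-0.97 to 1.07). On plain library totals the replication-dependent KO sum after LPS was 38.3 CPM and the replacement sums were 1148 and 1240 CPM unstimulated and 637 and 699 CPM after LPS in WT and KO cells. Without H1f2 the replication-dependent sums were 58.5, 42.0, 30.7 and 19.0 CPM in unstimulated WT and KO and LPS WT and KO cells. The causes were not tested. Depth limits members below 0.5 CPM, and copies sharing sequence limit the H3 genes and most H2A, H2B and H4 genes.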
